A study of Mus musculus with 2 samples.

Results

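The receptors of the IL-2 cytokine family were followed through the immune cells of mouse liver. The set held 7 genes of the 13528 in the cell table: Il2ra, Il2rb, Il2rg, Il7r, Il15ra, Il21r and Il4ra. They were chosen by name, with earlier results of these data known. CD45+ cells were captured from livers of C57BL/6 mice with 49 oligonucleotide-tagged antibodies, so that transcripts and surface proteins were counted in the same cell. TG mice carry dnTGFβRII, a dominant negative TGF-β receptor II whose expression follows the mouse CD4 promoter and so reaches T cells. They develop an autoimmune bile duct disease used to model primary biliary cholangitis, and wild type (WT) mice were their controls. The label age is 10 weeks for all mice, and the study's own methods state a younger one.

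There were 2 capture libraries, each pooled from a pair of genotypes. TG mice shared the first with IFN-γ ARE-Del-/- mice, and wild type mice shared the second with P40-/-IL-2Ra-/- mice. How many mice each pool held is not given in the sources used here. The cell table names 4647 TG cells, all from the first library, and 7282 WT cells, all from the second. The remaining 5379 and 16829 cells of these libraries have no genotype name and stood for no genotype. With 1 library per genotype there was no test, and a difference between TG and WT cannot be told apart from one between the libraries. Ranges in parentheses after a level, ratio or share are 95% intervals that cover counting error only.

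The TG cells held 18498477 transcript molecules (unique molecular identifiers, UMIs) with a median of 3298 per cell, and the WT cells 22216379 with a median of 2653.5. Both libraries share 267 cell barcodes, of which 36 are named in both, and labels drawn at random from the 884736 possible would share 273. The deposited names were checked against marker lists. For 5 of them the lists are given here, and for NKT and immature B cells beside their results below. Cells named monocyte held 59382 CPM (counts per 1000000 UMIs of the summed cells) of a neutrophil list in TG and 39348 CPM in WT, against 2329 and 1757 CPM of the monocyte list, and are called monocyte-named below. CD8αα T cells held 267 CPM of 2 γδ T cell markers in TG and 1395 CPM in WT, and 2964 CPM of an erythroid list in WT. Cells named NK had a summed level of 5 T cell markers of 4071 CPM in TG, against 1617 CPM for WT. Among cells named mature B, cluster 17 held the T cell list (3234 and 4009 CPM in TG and WT) beside the B cell list (4332 and 3364 CPM). In cells named macrophage, C1qa and C1qb are at 0 in TG, as in all TG cells, which the filter of the table on genes seen in few cells can give. Adgre1, the other macrophage marker, was close in both genotypes in cluster 15 (54.3 CPM for TG, 53.0 for WT), which holds most of these cells, beside 520 and 702 CPM of a dendritic cell list over the whole type. Cluster 27, macrophage-named cells with 23 from WT and 0 from TG, held 6312 CPM of the macrophage list, against 178 CPM in WT cells of cluster 15.

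These receptors are built from shared chains. Il2rg encodes the common γ chain, which joins Il2rb in the receptors for IL-2 and IL-15, Il7r in the receptor for IL-7, Il21r in that for IL-21 and Il4ra in that for IL-4. Il2ra (CD25) and Il15ra add affinity for their own ligand. IL-7 supports naive and memory T cells, IL-15 supports NK, NKT and memory CD8+ T cells, and regulatory T cells depend on IL-2, which they take up through CD25.

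In the GENCODE annotation of GRCm38, 4 of the 7 genes lie in neighbouring pairs. Il2ra (ENSMUSG00000026770, chr2:11642807-11693193, plus strand) is 12096 bases from Il15ra (chr2:11705290-11734317, plus strand). Il4ra (chr7:125552120-125579474) is 23954 bases from Il21r (chr7:125603429-125633570), both on the plus strand. Il2rb (chr15:78479256-78495271) and Il7r (chr15:9505788-9530176) share a chromosome at a distance, and Il2rg (chrX:101264378-101268255) is on the X chromosome, all 3 on the minus strand. Of the 7 genes, 6 matched a RefSeq promoter entry. The 250 bases before the RefSeq start are shown for Il2ra, whose transcript was high in few cell types (chr2:11642542-11642791, plus strand), and for Il2rg, whose transcript was found in all of them (chrX:101268256-101268505, minus strand), in GRCm38.p6 and 5′ to 3′. Capitals mark the letters TGTGGT of the RUNX motif.
Il2ra: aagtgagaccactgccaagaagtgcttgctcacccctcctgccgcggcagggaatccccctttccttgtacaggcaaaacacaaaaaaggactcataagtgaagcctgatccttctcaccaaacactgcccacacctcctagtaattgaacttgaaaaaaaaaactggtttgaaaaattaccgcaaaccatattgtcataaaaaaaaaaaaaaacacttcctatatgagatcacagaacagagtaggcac
Il2rg: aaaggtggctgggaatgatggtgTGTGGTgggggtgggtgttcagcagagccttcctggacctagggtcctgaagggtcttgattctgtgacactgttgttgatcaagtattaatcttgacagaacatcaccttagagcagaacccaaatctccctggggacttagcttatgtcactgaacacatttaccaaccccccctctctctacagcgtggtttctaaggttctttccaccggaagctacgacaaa
TGTGGT was searched on both strands and is held by 14.05% of 32851 promoter windows of this length. The Il2ra window holds neither it nor TTCNNNGAA, TCACACC or AGATAA, letters of the STAT, T-box and GATA motifs.

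Each receptor chain had its own order of cell types. The common γ chain varied little among T and NK cells. Over the T and NK types Il2rg ranged from 597 to 805 CPM in TG and from 622 to 936 CPM in WT. In mature B cells it was 522 CPM in TG and 541 CPM in WT, and in monocyte-named cells 109 and 132 CPM. Among the 10 cell types with at least 30 cells in each genotype, the TG over WT ratio of Il2rg stayed between -0.30 (NK cells) and 0.29 (macrophages) on the log2 scale.

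**Figure D1:**
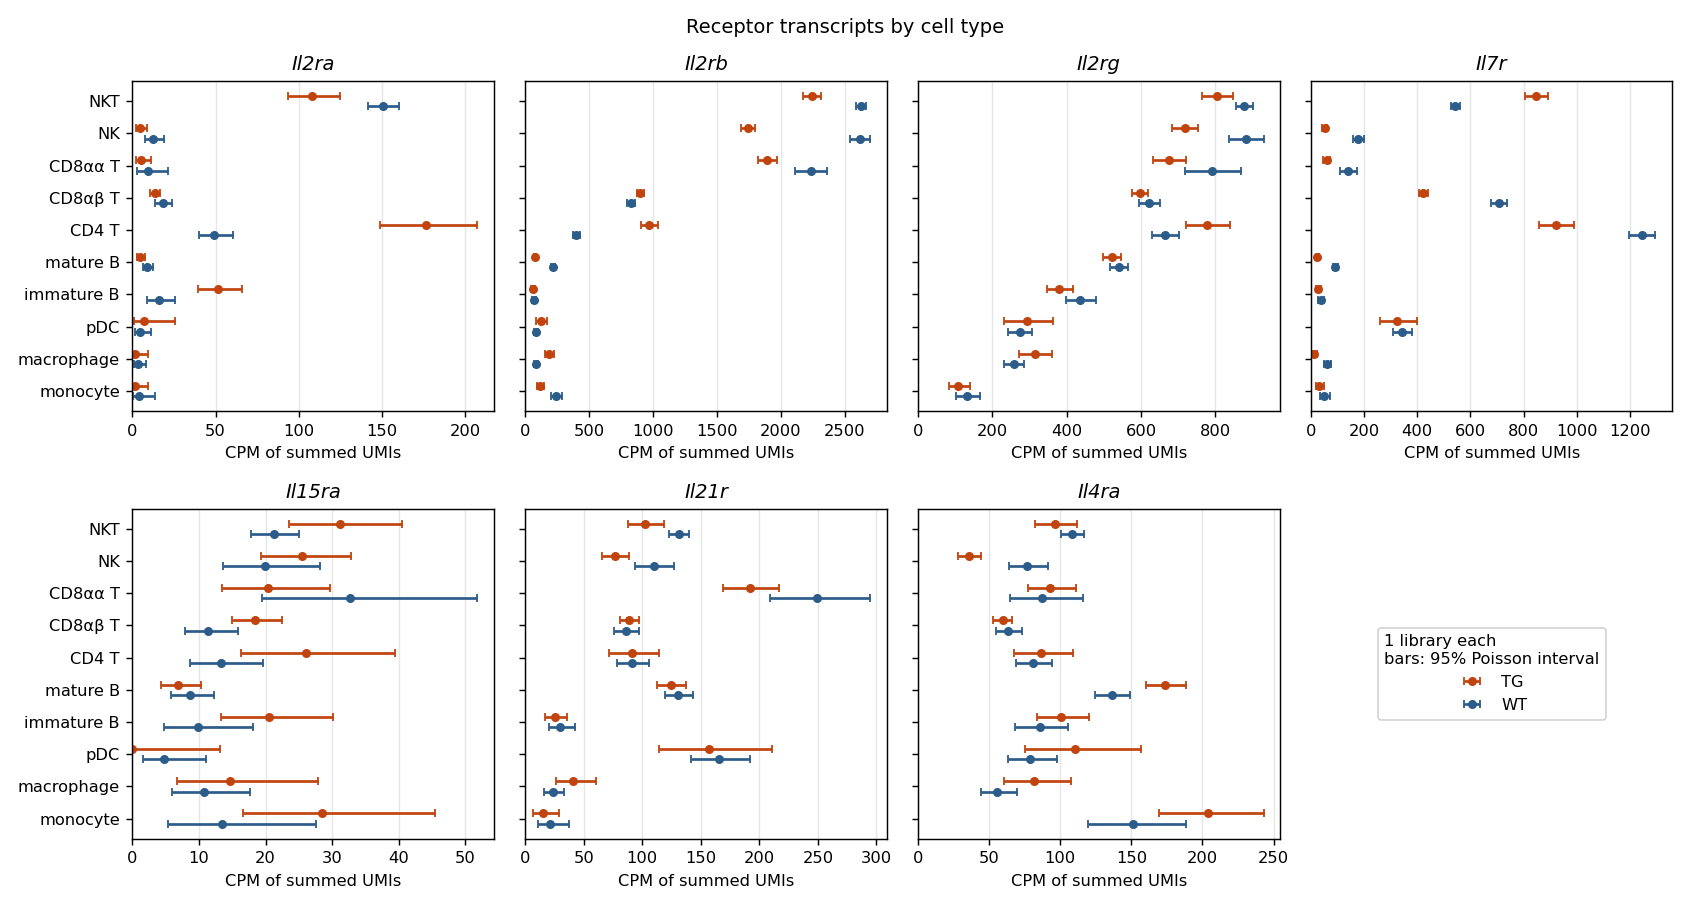
Level of each receptor transcript (x axis, CPM of summed UMIs, a separate scale per gene) in 10 deposited cell types (y axis) for TG (orange) and WT (blue); points are sums over the cells of 1 library and bars 95% Poisson intervals. Il2ra in CD4 T cells lies at 176 CPM for TG and 49.3 CPM for WT with intervals apart, while both genotypes lie close together for Il2rg in every type.

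By cell type, the β chain was highest in cytotoxic and innate-like lymphocytes. Il2rb was highest in NKT cells (2243 CPM in TG and 2629 CPM in WT), NK cells (1744 and 2615 CPM) and CD8αα T cells (1893 and 2233 CPM). In WT the intervals of NKT and NK cells overlapped. CD8αβ T cells held 901 CPM in TG and 824 CPM in WT, and CD4 T cells 968 and 400 CPM. Within CD4 T cells, cluster 21 reached 1821 CPM (1636 to 2020) in TG, a range that included the level of NK cells of TG. The NK-named clusters 3, 8 and 11 of TG held 2558, 1925 and 942 CPM. B cells and monocyte-named cells were between 58.1 and 239 CPM in both genotypes.

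Il7r followed another order. It was highest in WT γδ T cells (2056 CPM), then in CD4 T cells (922 CPM in TG and 1245 CPM in WT), and was low in NK cells (51.3 and 179 CPM) and CD8αα T cells (58.9 and 138 CPM). Plasmacytoid dendritic cells (pDC in the plots) held 324 CPM in TG and 344 CPM in WT, above every other myeloid or B cell type compared. NKT cells (848 and 543 CPM) were above CD8αβ T cells (423 and 707 CPM) in TG and below them in WT.

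The α chain of the IL-2 receptor was high in few types. Il2ra was highest in CD4 T cells in TG (176 CPM) and in NKT cells (151 CPM) and γδ T cells (147 CPM) in WT, whose intervals overlapped. NKT cells of TG held 108 CPM. NKT cells held 75.2% of all Il2ra UMIs of WT cells and 36.6% of those of TG cells, and were 30.7% and 9.60% of the cells. Over all cells Il2ra was 28.2 CPM in TG and 59.7 CPM in WT, a log2 ratio of -1.08 (-1.23 to -0.93) that stood opposite to the ratio within CD4 T cells.

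The remaining chains had other orders. Il21r was highest in CD8αα T cells (192 CPM in TG and 249 CPM in WT), followed by plasmacytoid dendritic cells (157 and 166 CPM). Mature B cells held 124 and 131 CPM of it. Il4ra, the IL-4 and IL-13 receptor chain, was highest in monocyte-named cells (204 and 151 CPM) and mature B cells (174 and 136 CPM). Il15ra, which presents IL-15 to neighbouring cells, did not exceed 32.7 CPM in any type with at least 30 cells of a genotype, and all neighbours in that order overlapped.

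Between TG and WT, 14 of the 66 receptor and cell type pairs with at least 10 UMIs differed by at least 2-fold, 6 higher and 8 lower in TG. That is 21.2%, beside 11.5% for all gene and cell type pairs tested in the same 10 types (5.94% higher, 5.56% lower). The pairs come from 7 genes in 1 library per genotype and are not independent. The higher pairs were Il2ra and Il2rb in CD4 T cells, Il2ra and Il15ra in immature B cells, Il2rb in macrophage-named cells and Il15ra in monocyte-named cells. The lower pairs were Il7r in CD8αα T, NK, mature B and macrophage-named cells, Il2ra and Il4ra in NK cells, and Il2rb in mature B and monocyte-named cells. Il2ra in NK cells rests on 11 UMIs in TG and 20 in WT (4.82 and 12.5 CPM). For both Il15ra pairs the interval of the ratio included 0.

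CD4 T cells of TG mice held more of the α and β chains of the IL-2 receptor. Il2ra was 176 CPM (149 to 207) in TG and 49.3 CPM (39.9 to 60.2) in WT, a log2 ratio of 1.84 (1.46 to 2.22). Il2rb was 968 CPM in TG and 400 CPM in WT, a log2 ratio of 1.27 (1.13 to 1.42). Il2rg differed by 0.23 (0.09 to 0.37) and Il7r by -0.43 (-0.55 to -0.32). In CD4 T cells 12.5% of all genes passed 2-fold.

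Cluster 21 held most Il2ra UMIs of TG CD4 T cells. This cluster of 48 TG and 65 WT CD4 T cells held Foxp3, the lineage factor of regulatory T cells, at 923 CPM in TG cells and 953 in WT cells. Its Il2ra level was 662 CPM (552 to 786) in TG and 235 CPM (173 to 311) in WT. It held 86.6% of the Il2ra UMIs of TG CD4 T cells and 50% of those of WT CD4 T cells, while it was 20.2% and 8.86% of these cells. In cluster 21 the log2 ratio of Il2ra was 1.5 (1.01 to 2.01), and among CD4 T cells outside it 0.16 (-0.67 to 0.94). With cells divided by Foxp3 itself, the ratio was 1.46 (1.01 to 1.92) with a Foxp3 UMI and 0.78 (-0.05 to 1.59) without one. The difference between these ratios was not tested. Giving each CD4 T cluster equal weight left a ratio of 1.27.

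Other chains were higher beside it within cluster 21. Il2rb was 1821 CPM (1636 to 2020) in TG and 626 CPM (522 to 744) in WT, a log2 ratio of 1.54 (1.25 to 1.84). Il4ra was 180 CPM in TG and 44 CPM in WT, a log2 ratio of 2.03 (0.94 to 3.27) that rests on 35 and 9 UMIs. Il7r was 687 and 464 CPM, 0.57 (0.18 to 0.96), and Il2rg 872 and 1036 CPM, -0.25 (-0.55 to 0.05). In cluster 21, 18.9% of all genes passed 2-fold. All 3 chains of the high-affinity IL-2 receptor were found together in 50% (35.2 to 64.8) of TG cells of cluster 21 and in 20% (11.1 to 31.8) of WT cells. Thinned to 1000 UMIs per cell, which left out no cell, these shares were 8.33% (2.32 to 20.0) and 3.08% (0.37 to 10.7), from 4 and 2 cells, and their intervals overlapped. Of monocyte-named cells, myeloid cells that should lack Il2ra, 0.490% in TG (median 2614.5 UMIs) and 0.775% in WT (median 1769.5 UMIs) held an Il2ra UMI, against 56.3% and 30.8% of cluster 21 (median 3674 and 2783 UMIs).

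CD25 protein was also higher in TG cells of this cluster. The median deposited CD25 value, a natural-log centred ratio over the antibodies of a cell, was 0.91 in TG (quartiles 0.52 and 1.35) and 0.58 in WT (0.36 and 0.82). As a share of all antibody counts CD25 was at 9080 CPM in TG and 4184 in WT. Within TG cells of cluster 21, the 27 cells with an Il2ra UMI had a median of 1.08 and the 21 without one 0.61. In WT the medians were 0.61 and 0.55. Of a regulatory T cell list, 3 of 5 genes were higher by at least 2-fold in CD4 T cells of TG (Ikzf2, Tnfrsf18 and Tnfrsf4, at log2 ratios of 1.54, 1.46 and 2.36), beside 7.53% of all genes higher by that fold, and 0 were lower. Foxp3 was at 0.85 and Ctla4 at 0.53. Cluster 21 makes up more of the TG cells, so these ratios include its share. Ikzf2 was also higher by 2-fold in CD8αα T, NK-named and monocyte-named cells, and Tnfrsf4 in CD8αβ T and NKT cells. Over all 10 types 8 of 39 pairs of this list were higher and 7 lower, beside 5.94% and 5.56% of all gene and cell type pairs.

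**Figure D2:**
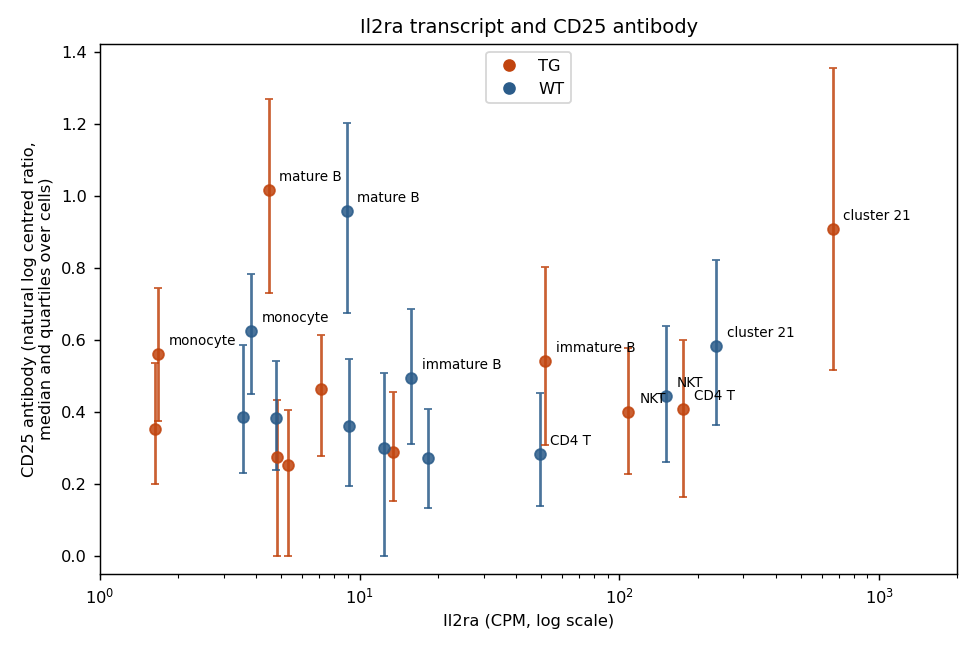
Il2ra transcript (x axis, CPM, log scale) against CD25 antibody (y axis, natural-log centred ratio, median and quartiles over cells) in 10 cell types and in cluster 21, which is part of CD4 T cells; orange is TG and blue WT. TG cluster 21 is far right at 662 CPM with a median of 0.91, whereas mature B cells reach 1.02 in TG and 0.96 in WT at Il2ra levels of 4.46 and 8.91 CPM.

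In B cells the CD25 antibody and Il2ra stood apart. Mature B cells had the highest median CD25 value of the 10 types, 1.02 in TG and 0.96 in WT, at 4.46 and 8.91 CPM of Il2ra. In cluster 1, which is 1028 TG and 1329 WT mature B cells, Il2ra was at 3.51 and 1.06 CPM (11 and 3 UMIs) and the CD25 median at 1.03 and 0.99. Mature B cells with an Il2ra UMI had lower CD25 medians than those without one, 0.77 (12 cells) and 1.02 in TG and 0.82 (25 cells) and 0.96 in WT. Of the 1329 WT cells of cluster 1, 1326 held no Il2ra UMI, so most of the 25 WT cells lay outside it. Cluster 17, which held T cell markers, was at 39.8 CPM of Il2ra in WT with a CD25 median of 0.70. The WT contrast thus sets cells of different clusters beside each other. Across clusters of at least 30 cells the Spearman correlation of CD25 with Il2ra was 0.17 over 21 TG clusters and 0.33 over 23 WT clusters. Without B cell clusters it was 0.20 over 19 and 0.49 over 20. For CD122, the protein of Il2rb, it was 0.75 and 0.70 over all these clusters and 0.69 and 0.62 without B cells. These are descriptions, since clusters of 1 library share their depth and antibody background. In immature B cells Il2ra was 51.6 CPM in TG and 15.7 CPM in WT, with 63 and 16 UMIs and a log2 ratio of 1.71 (0.90 to 2.60). The 3 cells with the most Il2ra held 23.8% and 37.5% of these UMIs. The CD25 medians there were 0.54 and 0.50, while CD25 as a share of antibody counts was lower in TG (2193 and 2470 CPM). Of immature B cells, 40.9% in TG and 24.8% in WT held at least 2 UMIs of both the B and the T cell list. Without these cells the Il2ra ratio was 2.14.

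Il2rb was also higher in CD4 T cells outside cluster 21, with a log2 ratio of 0.93 (0.76 to 1.11). The mix of clusters enters this value, since cluster 6 was 24.4% of CD4 T cells in TG and 54.1% in WT, and cluster 9 was 55.5% and 37.1%. Cluster 6, the CD4 T cluster with the highest Il7r, held Il2rb at 338 CPM (258 to 436) in TG and 53.1 CPM (39.7 to 69.4) in WT, a log2 ratio of 2.67 (2.11 to 3.24), from 59 and 53 UMIs. The CD62L medians of cluster 6 also differed, at 1.78 in TG and 3.09 in WT, as did those of CD44, at 2.13 and 1.76. An Il2rb UMI was found in 39.7% of TG and 11.8% of WT cells of this cluster, and in 27.6% and 3.78% after thinning to 1000 UMIs. Of monocyte-named cells 15.2% in TG and 14.3% in WT held an Il2rb UMI, so the WT share in cluster 6 was not above that of a cell type with little Il2rb. Cluster 9 held 850 and 804 CPM, 0.08 (-0.11 to 0.26). It was high for CD44, with medians of 3.64 in TG and 3.46 in WT, as was cluster 21 (3.05 and 3.18).

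CD62L-high CD8αβ T cells also held more Il2rb in TG. In cluster 4, Il2rb was 986 CPM (915 to 1061) in TG and 289 CPM (257 to 323) in WT, a log2 ratio of 1.77 (1.58 to 1.97). In cluster 4, 12.4% of all genes passed 2-fold. Leaving out cells with both B and T markers (12.4% of TG and 0.551% of WT cells) gave 1.77, and giving each cell equal weight gave 1.9. Il4ra was 145 CPM in TG and 76.3 CPM in WT there, 0.93 (0.50 to 1.37). Il7r was 1001 and 1174 CPM, a log2 ratio of -0.23, so Il7r differed less than Il2rb in the same cells. Both Il7r and Il2rb were found in 83.4% of TG and 38.6% of WT cells of cluster 4, and in 31.7% and 12.1% after thinning.

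CD122 protein was higher as well. The CD122 median in cluster 4 was 1.37 in TG (quartiles 0.95 and 1.65) and 0.60 in WT (0.40 and 0.80), so that the quartile ranges did not overlap. As a share of antibody counts CD122 was at 8280 CPM in TG and 2823 in WT. CD44, an adhesion protein of antigen-experienced T cells, had medians of 3.14 and 1.31 in the same cells, and CD62L, the lymph node homing receptor of naive and central memory T cells, 3.34 and 3.28. In cluster 13, which was high for CD44 and CD62L in both genotypes, Il2rb was 1517 and 1266 CPM, and the CD122 medians were 1.47 and 0.93. Cluster 7 carried the CD8αβ name, but its CD8β antibody medians were 0.57 in TG and 0.59 in WT, against 1.65 and 1.78 in cluster 12. In clusters 7 and 12, which were low for CD62L, Il2rb was lower in TG (716 and 850 CPM, and 569 and 706 CPM) while the CD122 medians were 0.69 and 0.71 in cluster 7 and 0.60 and 0.61 in cluster 12. Cluster 18, CD8αβ T cells with 115 from TG and 37 from WT, held 907 and 1504 CPM of Il2rb. Its CD122 medians were 0.59 and 0.50, and CD122 as a share of antibody counts was 3401 and 4074 CPM. The CD4 antibody, which marks another T cell type, had medians of 1.33 in TG and 0.58 in WT in cluster 4 and 1.42 and 0.71 in cluster 13. Its medians were 1.41 and 0.87 in cluster 12 and 1.60 and 1.77 in cluster 7. The part of such antibody differences in the CD122 values was not tested.

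**Figure D3:**
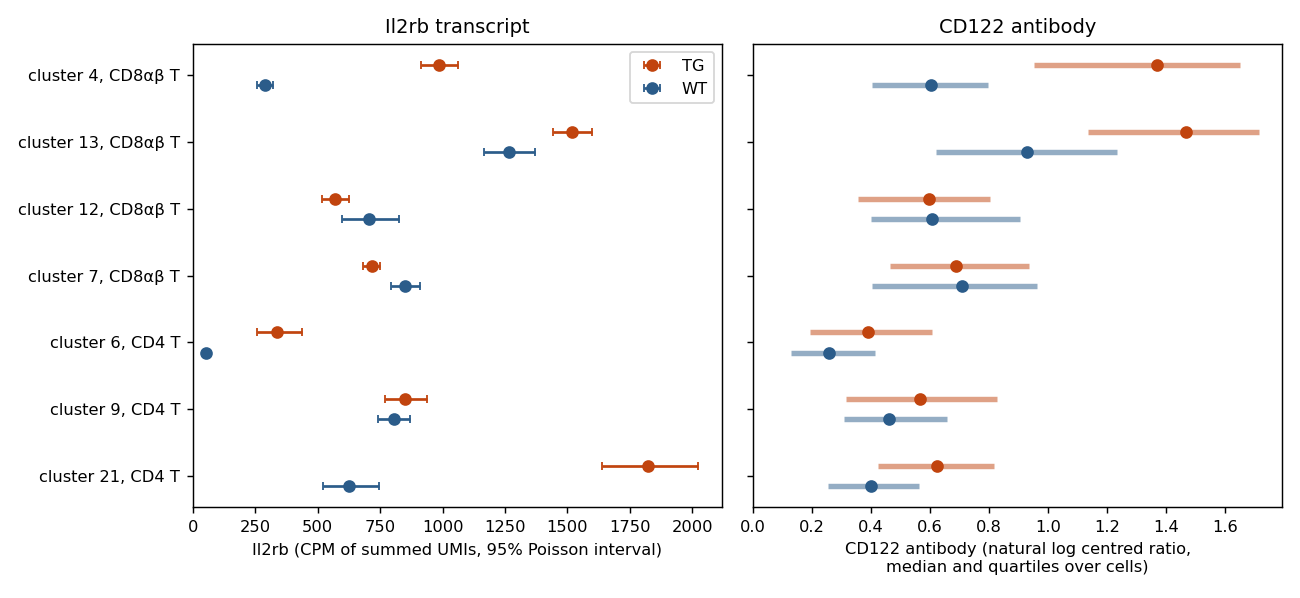
Il2rb transcript (left, CPM with 95% Poisson intervals) and CD122 antibody (right, natural-log centred ratio, median and quartiles over cells) in 4 CD8αβ and 3 CD4 T cell clusters for TG (orange) and WT (blue). Cluster 4 differs in both readouts, with 986 and 289 CPM and medians of 1.37 and 0.60, whereas clusters 7 and 12 have nearly equal CD122 medians.

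Summed over all CD8αβ T cells, Il2rb was nearly equal. It was 901 CPM in TG and 824 CPM in WT, a log2 ratio of 0.13 (0.06 to 0.20). It became -0.036 with equal weight for each cluster and 0.38 without cluster 7, so its direction depended on the mix of clusters. Il7r was 423 CPM in TG and 707 CPM in WT, -0.74 (-0.83 to -0.66). It stayed below 0 in each setting, at -0.34 with equal cluster weights and -0.42 without cluster 7. Neither gene passed 2-fold in CD8αβ T cells, where 9.88% of all genes did. Cells with Il7r and without Il2rb were 2.55% (1.67 to 3.71) of CD8αβ T cells in TG and 24.4% (21.5 to 27.5) in WT. After thinning they were 9.51% and 28.0%. Cluster 4 was 14.2% of the CD8αβ T cells in TG and 44.3% in WT, and clusters 7 and 12 were 31.3% and 24.4% in TG against 16.1% and 8.91% in WT.

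Il7r was the chain most often lower in TG. It was lower by at least 2-fold in 5 of the 17 clusters compared and higher by that fold in 0, beside 6.33% of all gene and cluster pairs lower by that fold. Its interval lay below 0 in 10 clusters and above 0 in 2. No share over all genes is given for such interval counts, which also depend on how deeply a gene was counted. For Il2rg, which passed 2-fold in 0 clusters, the interval lay below 0 in 6. In cluster 12, CD62L-low CD8αβ T cells, Il7r was 66.7 CPM (49.3 to 88.2) in TG and 455 CPM (370 to 554) in WT, a log2 ratio of -2.77 (-3.29 to -2.26). In CD8αα T cells it was 58.9 and 138 CPM, -1.23 (-1.71 to -0.76), where the γδ T cell markers were lower in TG too (267 and 1395 CPM). Their part in the difference was not tested. In cluster 7 it was 69.0 and 133 CPM, -0.95. NKT cells went the other way, with 848 CPM in TG and 543 CPM in WT, 0.64 (0.55 to 0.73), together with Il2ra at -0.48 (-0.71 to -0.26) and Il2rb at -0.23 (-0.28 to -0.18). Beside these, Cd4 was 634 CPM in TG and 162 CPM in WT NKT cells and the NK list 470 and 800 CPM, and their part was not tested.

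NK-named cells also held less Il7r in TG. It was 51.3 CPM in TG and 179 CPM in WT over all NK-named cells, -1.80 (-2.12 to -1.49). In cluster 8, where the T cell list was lowest (819 CPM in TG and 666 CPM in WT), it was 17.7 and 77.2 CPM, -2.12 (-3.26 to -1.14). Clusters 3 and 11 carried 5572 and 4775 CPM of the T cell list in TG, and cluster 11 was nearly all TG (343 and 22 cells). Il2rb in NK-named cells was lower by 0.58 on the log2 scale in TG, and its ratio in cluster 8 was -0.29. Il4ra was 35.5 and 76.6 CPM, -1.11 (-1.53 to -0.69), and in cluster 8 21.2 and 42.7 CPM, -1.01 (-2.11 to -0.01). In NK-named cells 11.3% of all genes passed 2-fold. The erythroid list was at 1067 CPM in WT and 1.31 CPM in TG NK-named cells, and its part in these differences was not tested.

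In mature B cells the Il2rb and Il7r differences were smaller in cluster 1 than in the whole type, while Il2ra turned. Over the type Il2rb was 78.0 CPM in TG and 216 CPM in WT, -1.47, and Il7r 23.2 and 91.0 CPM, -1.97. Cluster 17, which held T cell markers in 155 WT and 29 TG cells, belongs to these sums. In cluster 1 alone the ratios were -0.42 (-0.76 to -0.08) for Il2rb and -0.93 (-1.54 to -0.34) for Il7r, so neither passed 2-fold there, beside 6.31% of all genes. Il2ra was at 4.46 and 8.91 CPM over the type and at 1.73 (-0.19 to 4.21) on the log2 scale in cluster 1, from 11 and 3 UMIs. Il4ra was 180 and 146 CPM in cluster 1, 0.30 (0.11 to 0.48), and Il21r 121 and 129 CPM. In the macrophage-named cells Il2rb was 188 and 85.7 CPM and Il7r 9.80 and 60.7 CPM, the latter from 6 UMIs in TG. Cluster 27, which has no TG cells, belongs to the WT sums. Within cluster 15 Il2rb was 244 and 103 CPM. In cluster 15 the T cell list summed to 911 CPM in TG and 512 CPM in WT and the NK list to 249 and 47.1 CPM, and their part in the Il2rb difference was not tested. In monocyte-named cells Il2rb was 119 and 239 CPM, beside 610 and 945 CPM of the T cell list, whose part was not tested either.

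Il7r and Il2rb were also compared across T and NK clusters. Over 16 WT clusters of at least 30 cells, Il7r ranged from 77.2 to 2056 CPM and Il2rb from 53.1 to 2882 CPM, with a Spearman correlation of -0.60. Over 13 TG clusters Il7r ranged from 17.7 to 1474 CPM and Il2rb from 338 to 2558 CPM, with a correlation of -0.21. Over the 44 sums of all cell types used below, the Pearson correlation was 0.42. Both transcripts were found in the same cell in 84.7% of TG and 84.8% of WT cells of cluster 13, and in 63.5% and 53.5% of NKT cells. Clusters 4, 6 and 21 stood at higher Il2rb in TG than in WT, and clusters 2, 3, 7, 8 and 12 at lower Il7r. In clusters 2, 3, 7, 8 and 12 Il2rb was lower in TG as well. Over all 17 clusters compared, the interval of Il2rb lay below 0 in 9 and above 0 in 5, again without a share over all genes. Other clusters moved otherwise: cluster 9 held nearly equal Il2rb (850 and 804 CPM), and cluster 0, NKT cells, more Il7r (859 and 563 CPM) and less Il2rb (2317 and 2759 CPM) in TG. Over these clusters Il2rg varied 1.69-fold in TG and 2.34-fold in WT. The correlations are descriptions, because the clusters of a genotype come from 1 library and were defined on the same cells.

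**Figure D4:**
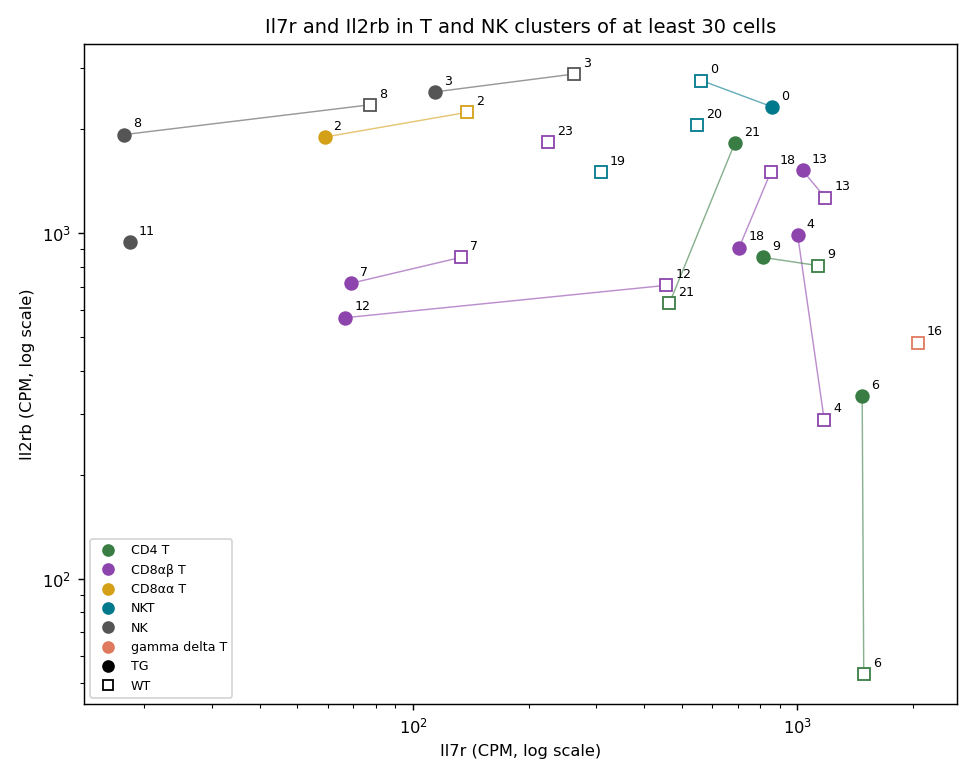
Il7r (x axis) and Il2rb (y axis) in CPM on log scales in T and NK clusters of at least 30 cells, numbered as deposited and coloured by cell type; filled circles are TG, open squares WT, and lines join the same cluster. Cluster 6 stands at 338 CPM of Il2rb in TG and 53.1 CPM in WT at nearly equal Il7r, and cluster 12 at 66.7 and 455 CPM of Il7r.

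The other genes of the pathway were read from lists. Of the ligands, 19 gene and cell type pairs could be compared, of which 4 were higher and 4 lower in TG by at least 2-fold, beside 5.94% and 5.56% of all gene and cell type pairs. Il2 was higher in CD8αα T cells (44.5 and 20.0 CPM, log2 ratio 1.16), CD8αβ T cells (9.43 and 3.26 CPM, 1.53) and NKT cells (23.8 and 6.66 CPM, 1.84). The fourth higher pair was Il4 in CD4 T cells, and the lower pairs were Il4 in CD8αβ T and mature B cells, Il15 in NK-named cells and Il13 in NKT cells. Il13 had 11 UMIs in WT NKT cells and is at 0 in all TG cells, which the filter of the table can give. Among types with at least 30 cells of a genotype, Il15 was highest in monocyte-named cells, at 155 CPM in TG cells and 188 in WT cells. Il4 was highest there in basophils in TG (235 CPM), ahead of NKT cells (48.7 CPM), and in NKT cells in WT (90.7 CPM). WT basophils, with 16 cells, were below that minimum. Il7, Il9, Il21 and Tslp are not among the genes of the cell table and could not be compared. Of the other receptor chains, 6 of 18 pairs were higher and 0 lower, beside the same 5.94% and 5.56%, among them Crlf2, the receptor chain for TSLP, in NKT cells (60.0 and 28.6 CPM) and CD4 T cells (59.2 and 21.6 CPM).

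Of 87 pairs of feedback and target genes of these receptors, 6 were higher and 6 lower in TG, beside 5.94% and 5.56% of all pairs. Cish, a STAT5-induced inhibitor of cytokine signalling, was 135 CPM in TG and 52.9 CPM in WT CD4 T cells, a log2 ratio of 1.35 (0.95 to 1.75). In the same cells Socs2 was higher (155 and 46.7 CPM, 1.73) and Myc lower (20.1 and 49.8 CPM, -1.31), and the median of the list was 0.05. These are sums over all CD4 T clusters, whose mix differs between TG and WT, and the part of that mix was not tested. The level of Cish in NKT cells was 179 and 95.4 CPM, 0.91 (0.71 to 1.11). Over the 7 receptors the median ratio in CD4 T cells was 0.23, beside 0.08 for all 9663 genes tested there, and in NK-named cells -0.58 beside -0.04. In CD8αα T and mature B cells it was -0.38 beside 0.04 and -0.33 beside -0.045. Over 6 receptors it was 0.50 beside 0.06 in macrophage-named cells and -0.38 beside -0.08 in monocyte-named cells. The remaining types lay between -0.18 and 0.10.

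The genes whose pattern over 44 sums of cluster and genotype was most like each receptor were found by the Pearson correlation of log2(CPM + 10) among 9737 genes. Il2ra was nearest to Icos (0.80), Hacd3 and Maf (both 0.79). Il2rb was nearest to AW112010 (0.95), Sh2d2a (0.92) and Ifng (0.91), and Il2rg to Ptprcap (0.88), Ldb1 and Gimap1 (both 0.87). Il7r was nearest to Kbtbd11 (0.82), Srpk1 (0.81) and Lef1 (0.80), and Il21r to Sesn3 (0.85), Tcf12 (0.80) and Gbp4 (0.79). Il15ra and Il4ra had no neighbour above 0.69 and 0.65, Rhoc and Neu1. Among the receptors themselves the closest pair was Il2rb and Il2rg (0.73), and Il4ra was not above 0.27 with any other.

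The second library bears on Il2ra in another way, because its labels name mice that lack IL-2Rα. Which part of the gene those mice lack is not given in the sources used here, so transcripts outside the deleted part could still be counted. Cells were set apart into T, B and myeloid classes from marker UMIs. The T class fell on a deposited T cell type in 94.0% of its WT cells and 77.9% of its TG cells. In the T class Il2ra was 8.25 CPM (7.45 to 9.12) in 12422 unnamed cells and 93 CPM (87.8 to 98.4) in 4241 WT cells, a log2 ratio of -3.49 (-3.66 to -3.33). It was the 15th lowest of 10712 genes with at least 100 UMIs. In this class 1 of the 7 receptors passed 2-fold, beside 16.1% of all genes. The class was not matched for cell type. NKT cells held 75.2% of all Il2ra UMIs of WT cells, so the share of NKT cells enters this ratio. Unnamed cells have no cell type name, and the part of that share was not tested. In B cells the ratio was -0.30 (-1.89 to 1.16), from 7 and 12 UMIs, and no difference was detectable at that depth.

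Il2ra transcripts were not absent from the unnamed cells. Of 226 unnamed T class cells with a Foxp3 UMI, 14.6% (10.3 to 19.9) held an Il2ra UMI, against 36.0% (26.1 to 46.8) of 89 such WT cells. The levels were 71.4 and 248 CPM, a log2 ratio of -1.80 (-2.28 to -1.32), beside 16.4% of all genes past 2-fold. CD25 antibody was lower in these cells by 0.77 on the log2 scale (2193 and 3728 CPM of antibody counts). Depth was alike, with medians of 2977.5 and 2958 UMIs. Over the whole T class CD25 differed by -0.25, and in B cells by -0.06. The unnamed cells of the second library need not all lack IL-2Rα, since the table may leave out WT cells too.

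The other chains of these T class cells differed less. Il2rb was 1000 CPM in unnamed and 1836 CPM in WT cells, -0.88 (-0.90 to -0.85). In those with a Foxp3 UMI it was 1139 and 705 CPM, 0.69 (0.49 to 0.90). Il15ra was higher by 0.85 (34.3 and 19.0 CPM) and Il4ra differed by -0.83. CD122 antibody was higher by 0.65 although Il2rb was lower. It was also higher by 0.41 in the B class and differed by -0.07 in the myeloid class. Between unnamed and TG cells of the first library, CD122 differed by -0.31 in the T class, 1.65 in the B class and 0.19 in the myeloid class. In the first library, where no label names a deletion of these receptors, 0 of the 7 receptors passed 2-fold between unnamed and TG cells of the T class, beside 6.45% of all genes, and Il2ra differed by 0.54 (0.36 to 0.72). In its B class Il2ra was lower, at -1.99 (-2.84 to -1.21), beside 6.74% of all genes past 2-fold. In its myeloid class, where 14.5% were, Il15ra (51.5 and 19.5 CPM, 1.40), Il21r (85.4 and 27.8 CPM, 1.62) and Il2ra (2.25, from 21 and 2 UMIs) were higher in unnamed cells. Among T class cells of the first library with a Foxp3 UMI, Il2ra was lower too, at 186 CPM in 81 unnamed and 514 CPM in 54 TG cells, a log2 ratio of -1.47 (-1.84 to -1.10). Il7r was lower by 2-fold there as well (211 and 540 CPM, -1.36), beside 16.4% of all genes past 2-fold. Il2rb was at -0.67 and Il2rg at -0.52. The reference of this ratio was TG cells, while that of the second library was WT cells. Among CD4 T cells with a Foxp3 UMI, Il2ra was itself higher in TG than in WT, by 1.46 (1.01 to 1.92). The Il2ra ratios of the libraries therefore have unlike references.

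**Figure D5:**
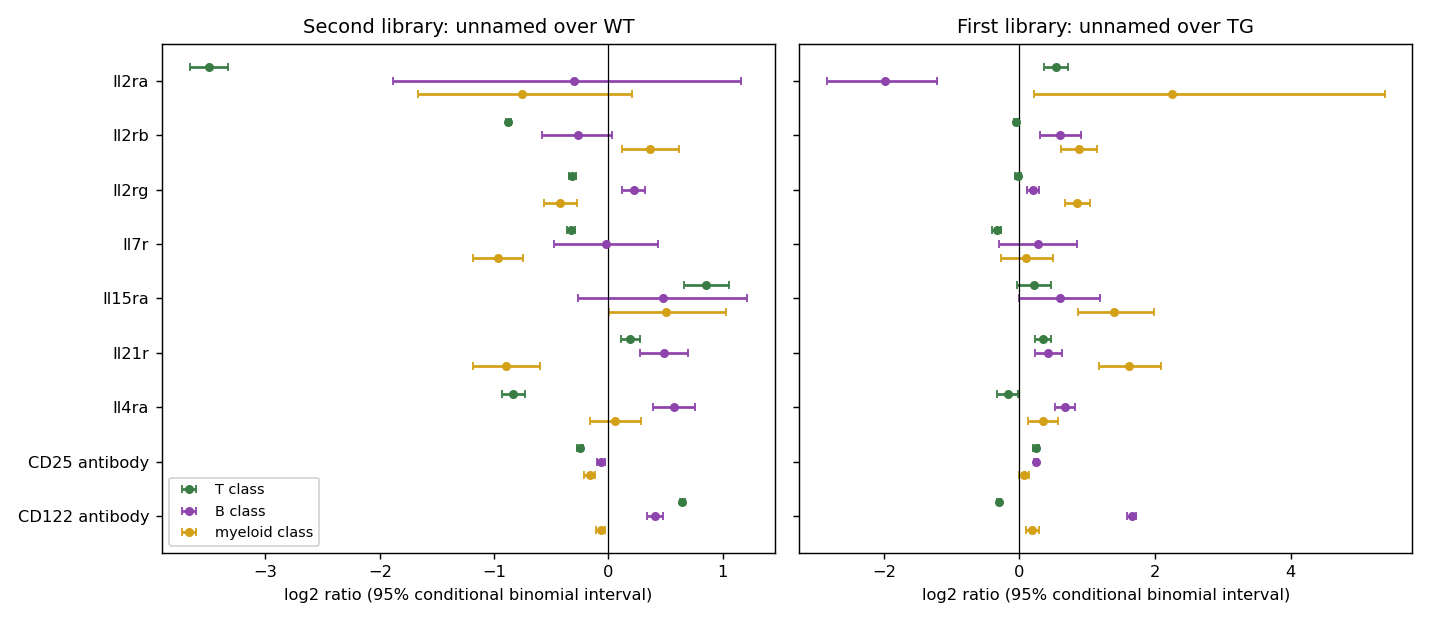
Log2 ratio (x axis) of unnamed cells over WT cells in the second library (left) and over TG cells in the first (right) for the receptors and both antibodies (y axis), in T (green), B (purple) and myeloid (yellow) classes with 95% conditional binomial intervals. Il2ra in T cells of the second library lies at -3.49, farther from 0 than any other value in that panel.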

How the data were processed

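CD45+ liver cells were labelled with oligonucleotide-tagged antibodies and captured with BD Rhapsody. Before deposition the authors aligned reads to mm10 with STAR in the BD Rhapsody pipeline (1.9 per the file headers), and UMI counts per cell were corrected for errors. The authors filtered cells and genes, removed the batch between libraries, clustered the cells and named cell types; the deposited counts are not normalised. Genes seen in few cells of a genotype are set to 0 there, which also enters the shares over all genes, and all 83503 member values compared equal those of the library files. The deposited antibody values are natural log centred ratios per cell. The deposited percent of mitochondrial UMIs per cell, computed by the authors, and the normalised transcript table entered no result. How doublets were treated is not given in the sources used here, and no doublet caller was run; in an alternative, cells that held 2 or more UMIs from each of the B and T lists were left out.

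UMIs were summed by genotype and deposited cell type or cluster and divided by the summed total (CPM), with 95% exact Poisson intervals. Log2 ratios carry exact conditional binomial intervals and shares of cells Clopper-Pearson intervals. A pair counted as past 2-fold at a log2 ratio of at least 1 in size, with at least 10 UMIs over both genotypes and 30 cells in each. Shares were recomputed after thinning each cell to 1000 UMIs. Unnamed cells were placed in a class where at least 80% of at least 3 marker UMIs were of that class. Named genes are the members, the pathway lists, marker genes as checks and the 3 genes most like each member. The CD44 and CD62L antibodies, used to describe clusters, were chosen after their values were seen. Part of the pathway lists is not reported here. The members and lists were chosen with earlier results of these data known. Alternatives were TMM scaling (edgeR 4.0.16), totals without ribosomal protein and mitochondrial genes, equal weights for cells or clusters, other minimums and library file counts. The ratio intervals were checked on simulated Poisson counts at the totals of CD8αβ and CD4 T cells, which hold no spread between cells or libraries. Python 3.11.15, numpy 2.4.6, scipy 1.17.1, pandas 2.3.3 and R 4.3.3 were used. Promoters came from RefSeq and gene positions from GENCODE.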

Additional observations from a re-analysis of the deposited data

How the results depend on the processing

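The count of receptor and cell type pairs past 2-fold was 14 and ran from 12 (equal weight for each cell, or without cells holding B and T markers) to 15 (no minimum of UMIs). With cluster 1 for mature B cells and cluster 8 for NK cells, chosen after seeing the data, it was 12, with 7 higher and 5 lower in TG. In CD8αβ T cells the Il7r ratio of -0.74 became -0.90 with equal weight for each cell, -0.34 with equal weight for each cluster and -0.42 without cluster 7. The Il2rb ratio of 0.13 became -0.036 with equal cluster weights, turning its direction, and 0.38 without cluster 7. In CD4 T cells the Il2ra ratio of 1.84 became 0.78 among cells without a Foxp3 UMI and 1.27 with equal cluster weights. For unnamed over WT cells of the second library, Il2ra went from -2.99 over all cells to -3.49 in the T class and -3.20 with equal weight for each cell, and CD25 from -0.37 to -0.25 in the T class and -0.35 as counts per cell. Il2ra in mature B cells turned from lower to higher in TG, to 2.06 without cells holding B and T markers and to 1.73 in cluster 1 alone, where it rests on 11 and 3 UMIs. Of the other values, 311 moved by less than their counting interval and 23 by more. The cause was not tested in any of these. Counts of under 30 UMIs limit Il15ra in most types and Il2ra in B and myeloid cells. No paired analysis was possible because each genotype has 1 library, and for the same reason no replicate could be left out.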
